A study of Mus musculus with 6 samples.

Results

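Transcripts of PD-1 and the other classical inhibitory checkpoint receptors were examined in thymic natural killer (NK) cells of the mouse. The genes were taken by name, Pdcd1, Lag3, Havcr2, Ctla4, Btla, Cd101, Lilrb4a and Lilr4b, and all 8 were found by Entrez gene ID among the 26332 genes counted. All 8 passed the filter on low counts and stood among the 13652 genes tested. The cells came from individual C57BL/6 mice, 4 wild type (WT) and 2 with a Tcf7 knock-out (KO), the gene of TCF-1, a transcription factor of T cell and innate lymphoid development. They were sorted from sieved thymi as negative for TCRbeta, CD3, CD8 and the CD1d tetramer and positive for NK1.1 and NKp46, and their RNA was sequenced after full-length amplification from low input. The male mice, by label, were WT 1, WT 3 and KO 1, and the females WT 2, WT 4 and KO 2. The sources used here do not give the knock-out allele, the ages of the mice or whether same-numbered mice were related.

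Checkpoint receptors are surface proteins that dampen lymphocyte activation when they meet a ligand on another cell. PD-1, CTLA-4 and BTLA belong to the CD28 family of immunoglobulin-like receptors. LAG-3 binds MHC class II, TIM-3 (the product of Havcr2) binds galectin-9 and other ligands, and CD101 and the gp49 receptors Lilrb4a and Lilr4b are further immunoglobulin-like proteins. PD-1, BTLA and the product of Lilrb4a carry short tyrosine motifs in their cytoplasmic tails that recruit phosphatases such as SHP-1 and SHP-2. They are best known from activated and exhausted T cells and are also found on subsets of NK and innate lymphoid cells.

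Total counts were 16418910 to 31155303 per library, and a level of 3 counts, taken as the floor of detection, corresponded to 0.0989 to 0.180 CPM (counts scaled to the TMM-adjusted library size). Tcf7 itself was at 811 to 947 CPM in WT and at 268 and 452 CPM in KO 1 and KO 2, so it was lower in both KO libraries than in every WT library (log2 fold change -1.35, adjusted p = 0.00294) and was not absent. The NK receptor gene Ncr1 was abundant in every library (820 to 1037 CPM in WT, 983 and 740 in KO 1 and KO 2), as was Klrb1c, which encodes NK1.1 (1555 to 1705, 1270 and 1084 CPM). Transcripts of proteins that the sort selected against were also counted: Cd3e at 18.1 to 74.9 CPM in WT and 131 and 82.3 CPM in KO 1 and KO 2, and Cd8a at 1.78 to 20.1, 79.5 and 64.4 CPM. WT 4 stood apart from the other WT libraries, with a chi-square per degree of freedom over genes of 36.9 to 62.2 against them, while they had 8.86 to 23.1 among themselves. WT 4 was also the highest WT library in Ctla4, Lilr4b, Havcr2, Lag3, Cd4 and Cd8a. Without it, 6 checkpoint genes were called higher, the 5 called with all libraries and Lilr4b. Over all genes tested, 1159 were then called higher, against 1110 with all libraries.

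All 8 checkpoint genes had a positive fold change in KO, and 5 of them were called higher at an adjusted p under 0.05: Pdcd1, Lag3, Btla, Cd101 and Lilrb4a. None was called lower. Over all genes tested, 8.13% were called higher and 5.58% lower. The median log2 fold change (KO minus WT) of the 8 was 2.25, against 0.02 over all genes tested. In 6 of the 8, all but Ctla4 and Lilr4b, both KO libraries lay above all 4 WT libraries, a pattern that 20.5% of all genes tested showed. The number called was 3 without WT 1 (Lag3, Lilrb4a and Pdcd1), 4 without WT 2 (all but Btla of the 5) and 3 without WT 3 (Btla, Lag3 and Pdcd1). Calls over all genes fell too, from 1110 higher to 665, 818 and 671. Without KO 1 the log2 fold changes of the 8 ran from 0.47 (Lilr4b) to 5.03 (Pdcd1). The p-values measure the spread between mice, of which only 2 carried the knock-out. In bulk RNA, a larger share of cells that carry a transcript and more transcript per cell cannot be told apart.

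**Figure D1:**
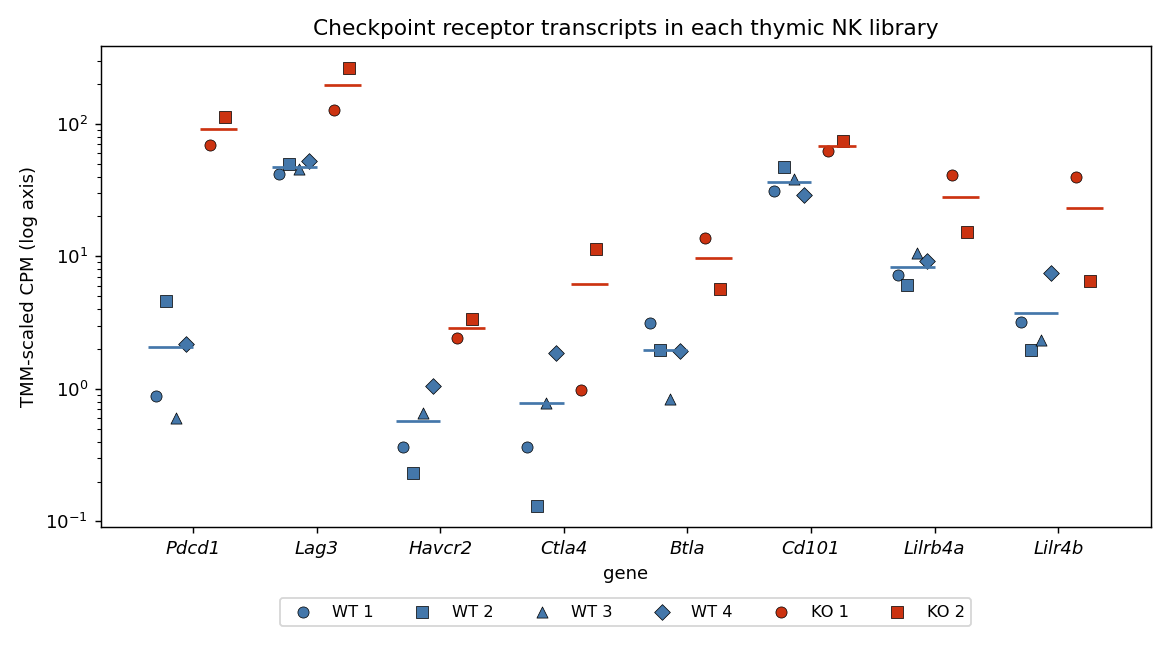
TMM-scaled CPM on a log axis for the 8 checkpoint genes, with 1 point per library (blue, 4 WT; red, 2 KO) and a line at each group's mean. The groups do not overlap for Pdcd1, Lag3, Havcr2, Btla, Cd101 and Lilrb4a, while KO 1 lies within the WT range for Ctla4 and KO 2 for Lilr4b.

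Pdcd1 (Entrez 18566, chr1:94038305-94052553 in GRCm38), which encodes PD-1, showed the largest change of the 8. From WT 1 to WT 4 its CPM read 0.891, 4.61, 0.600 and 2.18, while KO 1 had 68.7 and KO 2 had 113. These rest on raw counts of 22, 140, 10 and 54 for WT, and of 1185 and 3048 for KO. The WT libraries thus held the transcript at a low level that differed 7.69-fold among them, and the lower KO library was still 14.9-fold above the highest WT library. The log2 fold change was 5.65 (SE 0.37, adjusted p = 2.83e-04). It was 5.03 without KO 1 and 6.48 without KO 2, and the gene was called under all 19 alternatives tried. The females WT 2 and WT 4 had more Pdcd1 than the males WT 1 and WT 3, and KO 2 more than KO 1. The level in KO 1 was 92.2-fold the mean of the male WT libraries and that in KO 2 was 33.3-fold the mean of the female ones. The sex term for Pdcd1 (log2 difference, male minus female, -1.42, adjusted p = 0.759) and its genotype by sex interaction (1.44, adjusted p = 0.504) were not called.

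The window before the listed start of Pdcd1 is shown with those of Cd101 and Btla, the 3 called genes for which a RefSeq start was listed, because TCF-1 is a DNA-binding factor with a short recognition motif. Each line gives the 250 bases before the RefSeq start (GRCm38.p6), 5′ to 3′ on the gene's strand, with the letters CTTTG, the core of the TCF/LEF motif, in capitals wherever they stand on either strand.
Pdcd1 (chr1:94052554-94052803, minus strand): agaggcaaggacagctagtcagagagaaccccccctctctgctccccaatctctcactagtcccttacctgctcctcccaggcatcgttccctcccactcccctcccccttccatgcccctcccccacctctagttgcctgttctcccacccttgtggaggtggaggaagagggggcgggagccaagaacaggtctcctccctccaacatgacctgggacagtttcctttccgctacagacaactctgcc
Cd101 (chr3:101029554-101029803, minus strand): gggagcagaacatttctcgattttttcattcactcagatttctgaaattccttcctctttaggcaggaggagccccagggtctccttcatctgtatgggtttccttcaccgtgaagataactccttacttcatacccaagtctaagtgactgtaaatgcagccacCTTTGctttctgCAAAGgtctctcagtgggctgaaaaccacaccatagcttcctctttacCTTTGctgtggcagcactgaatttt
Btla (chr16:45224087-45224336, plus strand): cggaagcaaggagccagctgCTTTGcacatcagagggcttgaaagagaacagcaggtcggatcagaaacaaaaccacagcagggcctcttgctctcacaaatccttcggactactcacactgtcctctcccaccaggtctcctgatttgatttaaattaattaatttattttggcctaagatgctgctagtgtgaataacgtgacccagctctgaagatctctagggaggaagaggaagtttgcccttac
The window of Cd101 held the core 3 times, that of Btla once and that of Pdcd1 did not hold these letters. In Cd101 the copies began 85, 73 and 25 bases before the listed start, and in Btla 230 bases before it. The start listed for Btla lies inside the span of the gene as given here, downstream of its 5′ end, so the Btla window lies within that span. Of the 6 checkpoint genes with a listed start, 2 held it, and so did 48.6% of 32851 such windows of all genes. When the core had to be followed by AA, AT, TA or TT, none of the 6 windows matched, against 14.8% of all windows. These matches describe the letters only.

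Ctla4 (Entrez 12477, chr1:60909025-60915832), the gene of the receptor that competes with CD28 for CD80 and CD86, was near the floor in WT. It stood at 0.364, 0.132, 0.780 and 1.86 CPM in WT 1 to WT 4, at 0.985 CPM in KO 1 and at 11.3 CPM in KO 2. KO 1 lay inside the WT range, and only KO 2, with 304 counts, stood above it. The log2 fold change of 2.45 (SE 1.01, adjusted p = 0.155) was not called, and it was 0.79 without KO 2 and 3.52 without KO 1.

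Btla (Entrez 208154, chr16:45223705-45252895) encodes the receptor for HVEM. It was at 3.16, 1.98, 0.840 and 1.94 CPM in WT 1 to WT 4, and at 13.8 and 5.64 CPM in KO 1 and KO 2. Both KO libraries exceeded the highest WT library, KO 2 by 1.79-fold. The gene rose (log2 fold change 2.18, SE 0.52, adjusted p = 0.0327). Its call did not hold without WT 1 (adjusted p = 0.0679), WT 2 (0.0556), KO 1 (0.289, log2 fold change 1.52) or KO 2 (0.0583).

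Lag3 (Entrez 16768, chr6:124904359-124912434), the MHC class II receptor related to CD4, was the most abundant of the 8 in reads. Its level was 41.7, 49.9, 45.6 and 52.6 CPM in WT 1 to WT 4, a 1.26-fold spread, and 127 and 265 CPM in KO 1 and KO 2. The lower KO library was 2.41-fold above the highest WT library, and KO 2 held 2.09 times the level of KO 1. The rise of Lag3 was 1.97 on the log2 scale (SE 0.18, adjusted p = 7.83e-04), and it was called under all 19 alternatives, with log2 fold changes from 1.53 to 2.36. KO 1 stood 2.90-fold above the male WT mean and KO 2 stood 5.16-fold above the female one, but the interaction was not called (log2 difference -0.83, adjusted p = 0.353) and rests on a single KO library per sex. By edgeR, 0 of 13652 genes were called for the interaction, and 1368 had an unadjusted p under 0.05. Over the 8 checkpoint genes its adjusted p was 0.353 to 0.994.

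Havcr2 (Entrez 171285, chr11:46454931-46481255), the gene of TIM-3, was scarce throughout. It had 0.364, 0.231, 0.660 and 1.05 CPM in WT 1 to WT 4 and 2.43 and 3.34 CPM in KO 1 and KO 2, which rest on 7 to 26 counts in WT and on 42 and 90 in KO. The groups did not overlap, yet the log2 fold change of 2.32 (SE 0.72, adjusted p = 0.0734) was not called. It passed the threshold with DESeq2 (adjusted p = 0.0233), with limma voom (0.0254) and without the expression filter (0.0399).

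Cd101 (Entrez 630146, chr3:100992189-101029553), an immunoglobulin-like receptor that restrains T cell activation, was already well expressed in WT. Its levels were 31.0, 47.0, 38.1 and 28.8 CPM in WT 1 to WT 4, and 62.8 and 73.7 CPM in KO 1 and KO 2. KO 1 was 1.34-fold above the highest WT library. The rise was the smallest of the 5 that were called (log2 fold change 0.91, SE 0.19, adjusted p = 0.0222), and the 2 KO libraries differed only 1.17-fold. Cd101 was not called without WT 1 (adjusted p = 0.0721), WT 3 (0.0529), KO 1 (0.110) or KO 2 (0.129), with log2 fold changes of 0.77 to 1.08 over the libraries left out.

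Lilrb4a (Entrez 14728, chr10:51490898-51496613) and Lilr4b (Entrez 14727, chr10:51480612-51486329) are neighbouring copies. Lilrb4a encodes gp49B, an inhibitory receptor with tyrosine motifs in its tail, and Lilr4b encodes gp49A, which lacks those motifs and is not itself an inhibitory receptor. Over the 7 coding exons of equal length in GENCODE M21 (GRCm38), 35 of the 864 bases differed (95.9% identity). Of all 50-base windows, 19.8% of those in the Lilr4b coding sequence were found unchanged in Lilrb4a, so reads from these stretches could be assigned to either copy or dropped. Exon 6 of both, with the same length and 4 differing bases, is shown to display how alike the copies are, with capitals at the bases that differ.
Lilr4b exon 6 (chr10:51483762-51483878, plus strand): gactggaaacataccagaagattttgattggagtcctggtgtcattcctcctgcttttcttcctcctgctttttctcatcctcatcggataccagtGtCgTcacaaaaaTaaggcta
Lilrb4a exon 6 (chr10:51494062-51494178, plus strand): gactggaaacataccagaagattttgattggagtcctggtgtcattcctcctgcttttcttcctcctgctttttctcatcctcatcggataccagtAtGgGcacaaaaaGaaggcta
The tails then part. The coding part of exon 8 is shown next, with capitals at bases of the aligned stretch that have no identical partner in the other copy (the end by which Lilrb4a is longer stays in lower case). Exon 9 of Lilrb4a, which has no coding counterpart in Lilr4b, follows it.
Lilr4b exon 8 (chr10:51485713-51485757, plus strand): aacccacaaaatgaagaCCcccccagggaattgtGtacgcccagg
Lilrb4a exon 8 (chr10:51495994-51496059, plus strand): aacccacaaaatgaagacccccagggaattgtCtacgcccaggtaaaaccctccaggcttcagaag
Lilrb4a exon 9 (chr10:51496167-51496241, plus strand): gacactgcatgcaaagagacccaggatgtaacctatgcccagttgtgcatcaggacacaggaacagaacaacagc

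Lilrb4a was at 7.25, 6.03, 10.7 and 9.16 CPM in WT 1 to WT 4 and at 40.9 and 15.3 CPM in KO 1 and KO 2. Both KO libraries were above the WT libraries, KO 1 far more than KO 2. The gene rose (log2 fold change 1.64, SE 0.31, adjusted p = 0.0155), but was no longer called without WT 3 (adjusted p = 0.0587) or KO 1 (0.157, log2 fold change 1.01). Lilr4b was at 3.20, 1.98, 2.34 and 7.43 CPM in WT 1 to WT 4, at 39.5 CPM in KO 1 and at 6.50 CPM in KO 2. KO 2 lay below WT 4, so the groups overlapped. Its log2 fold change of 2.44 (SE 0.81, adjusted p = 0.0911) was not called, and it was 0.47 without KO 1 and 3.81 without KO 2 (adjusted p = 0.756 and 0.0223). It was also called without WT 4 (adjusted p = 0.00558), and under 5 further alternatives. With the counts of both copies summed, the pair stood at 8.01 to 16.6 CPM in the WT libraries and rose to 80.3 and 21.8 CPM in KO 1 and KO 2 (log2 fold change 1.91, SE 0.45, adjusted p = 0.0313). Lilr4b made up 18.0% to 44.8% of the pair's reads in WT, 49.1% in KO 1 (95% exact binomial interval 46.5% to 51.8%) and 29.8% in KO 2 (26.1% to 33.6%), intervals that cover counting error only. The KO 1 share lay above the WT range and the KO 2 share within it, and the WT mice themselves differed more widely than these intervals.

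**Figure D2:**
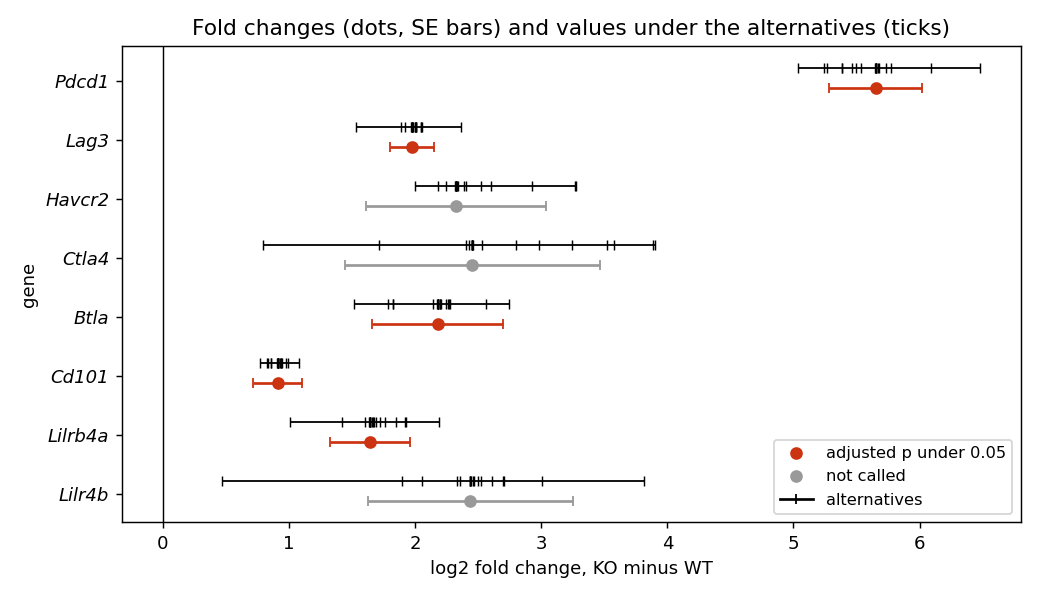
Log2 fold changes (KO minus WT) of the 8 genes, with dots and bars for the edgeR estimate ± SE (red, adjusted p under 0.05; grey, not called) and ticks for the values under the alternatives. Every value lies above 0. Ctla4 (0.79 to 3.90) and Lilr4b (0.47 to 3.81) spread most over the alternatives, and Cd101 (0.77 to 1.08) least.

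To compare levels between genes, CPM was divided by the deposited gene length (RPKM, CPM per kilobase of transcript). In WT, Lag3 stood first with 23.7 ± 2.40 RPKM (SD, n = 4), followed by Cd101 (11.1 ± 2.51), Lilrb4a (5.83 ± 1.45), Lilr4b (2.86 ± 1.93), Pdcd1 (1.07 ± 0.95), Btla (0.61 ± 0.29), Ctla4 (0.41 ± 0.40) and Havcr2 (0.21 ± 0.13). From Lilrb4a down, the ranges of neighbours in this order overlapped, whereas those of Lag3, Cd101 and Lilrb4a did not. In KO, Lag3 was still first (63.2 and 132 RPKM in KO 1 and KO 2) and Pdcd1 was second (35.6 and 58.6 RPKM). Cd101 followed with 19.2 and 22.5 RPKM, Lilrb4a with 28.8 and 10.8, and Lilr4b with 30.2 and 4.98, so the order of these 3 differed between the KO mice. Pdcd1 moved from a per-length level above 20.9% of the tested genes in WT to one above 87.0% in KO, and Lag3 from 72.4% to 94.9%.

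Summed over the 8 genes, the level was 39.6 to 50.3 RPKM in the WT libraries, 183 RPKM in KO 1 and 238 RPKM in KO 2. The makeup of this sum changed as well. The share of Pdcd1 was 0.691% to 4.96% in WT, 19.5% in KO 1 and 24.7% in KO 2, while that of Cd101 was 17.5% to 29.8%, 10.5% and 9.47%. Lag3 held 50.6% to 52.5% of the sum in every WT library, and 34.6% and 55.5% in KO 1 and KO 2. In both KO libraries the share of Pdcd1 was thus above, and that of Cd101 below, every WT library, and the share of Lag3 had no common direction.

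**Figure D3:**
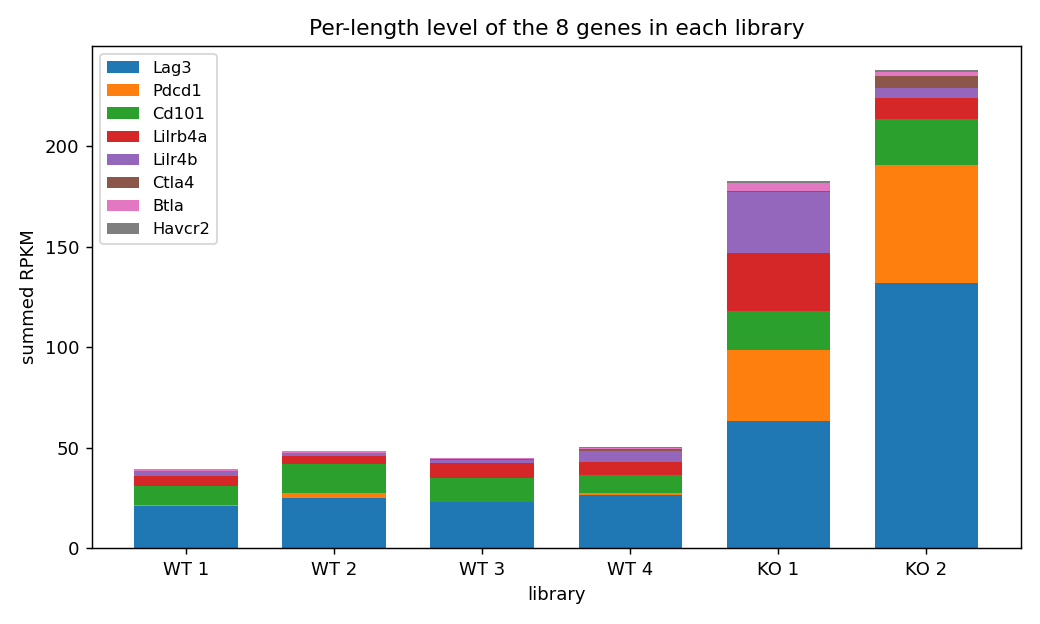
Stacked bars of RPKM for the 8 genes in each library, 4 WT and 2 KO, starting at 0. The sums are 39.6 to 50.3 in WT and 183 and 238 in KO 1 and KO 2. Lag3 is the largest block in every library, and Lilr4b and Lilrb4a are larger blocks in KO 1 than in KO 2.

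The KO libraries did not carry the same mixture. Pdcd1, Lag3 and Ctla4 were higher in KO 2, by 1.65-, 2.09- and 11.5-fold, and Havcr2 and Cd101 by 1.37- and 1.17-fold. Btla, Lilrb4a and Lilr4b were higher in KO 1, by 2.44-, 2.66- and 6.07-fold. KO 1 was labelled male and KO 2 female, so sex and mouse cannot be told apart within KO. The interaction test given with Lag3, whose spread comes from the WT libraries, called none of the 8. Set against the WT libraries of the same sex, KO 1 was 6.90-fold higher in Btla, 4.56-fold in Lilrb4a and 14.3-fold in Lilr4b, and KO 2 was 2.88-, 2.02- and 1.38-fold higher. For Ctla4 the order was the opposite, with 1.72-fold in KO 1 and 11.4-fold in KO 2. Havcr2 (4.75- and 5.22-fold) and Cd101 (1.82- and 1.94-fold) differed little between them.

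Markers of other cell types that express checkpoint receptors also differed between the libraries, and the genes named here were picked after their values were seen. The B cell genes Ms4a1 and Cd79a were at 0 to 2.34 CPM in WT, at 44.2 and 40.6 CPM in KO 1 and at 9.73 and 8.36 CPM in KO 2, and were thus higher in KO 1, as were Btla and the Lilr pair. Of 8 B and plasma cell markers 6 rose, and the summed level of the 8 was 386 to 433 CPM in WT, 582 in KO 1 and 457 in KO 2, most of it Ighm. Foxp3, the defining factor of regulatory T cells, which carry CTLA-4, had 0 counts in WT 2, WT 3 and KO 1, and stood at 1.75 CPM in KO 2, the library with the high Ctla4. Over the 5 regulatory T cell markers the sum was 19.3 to 28.5 CPM in WT, 84.4 in KO 1 and 309 in KO 2, most of it Il2ra, and 2 of the 3 tested rose (Il2ra and Gpr83). The 11 alpha-beta T cell markers summed to 323 to 507 CPM in WT, 1611 in KO 1 and 2097 in KO 2, with 4 called higher (Trac, Trbc2, Cd4 and Cd8a). Of these 11, 6 were higher in KO 1 (Cd3e, Cd3d, Cd3g, Trbc1, Cd8a and Cd6) and 5 in KO 2 (Trac, Trbc2, Cd4, Cd8b1 and Cd5). The 6 gamma-delta T cell markers summed to 232 to 385, 676 and 496 CPM, with 3 called higher (Trgc1, Trgc2 and Sox13). Over all genes tested, 8.13% were called higher. The part of these cell types in the checkpoint changes was not tested.

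Myeloid, mast and NK cells are known carriers of the gp49 receptors. Of 10 myeloid markers, 2 (C1qa and C1qb) rose. For this and the next lists, the shares over all genes tested were 8.13% called higher and 5.58% lower. The sum was 479 to 570 CPM in WT, 540 in KO 1 and 623 in KO 2, most of it Itgam and Fcgr3, which NK cells also express. The 7 myeloid markers with a WT mean of at most 10 CPM summed to 5.02 to 28.8 CPM in WT. Their sum was 54.2 CPM in KO 1 and 112 CPM in KO 2. Cd14 was at 0 to 0.0404 CPM in WT, had 0 counts in KO 1 and stood at 0.891 CPM in KO 2. Csf1r was at 0 to 2.79 CPM in WT and at 4.23 and 12.3 CPM in KO 1 and KO 2. Of the 10, 8 were higher in KO 2, and Itgam (347 and 280 CPM) and Adgre1 (2.78 and 2.56 CPM) were higher in KO 1. The part of myeloid cells in the levels of Lilrb4a and Lilr4b was not tested. The mast cell genes Mcpt4, Tpsb2, Ms4a2 and Fcer1a had 0 counts in all WT libraries and in KO 1. They were found in KO 2 only, at 0.45 to 5.20 CPM, and no mast cell marker was called. The sum of the 6 was 179 to 290 CPM in WT, 167 in KO 1 and 405 in KO 2, most of it Kit. Of 9 dendritic cell markers 4 (Xcr1, H2-Aa, H2-Ab1 and Cd74) rose (sums of 114 to 264, 605 and 741 CPM, most of it Cd74, H2-Aa, H2-Ab1 and Bst2). The 5 with a WT mean of at most 10 CPM summed to 5.75 to 39.3 CPM in WT. Their sum was 19.0 CPM in KO 1, within the WT range, and 49.0 CPM in KO 2. Of 9 thymic stroma markers 4 (Epcam, Krt5, Krt8 and Pecam1) rose (110 to 119, 272 and 449 CPM). Most of that sum was Pecam1, which is also in the list of other inhibitory receptors, and the other 8 summed to 5.10 to 7.91, 26.4 and 46.6 CPM. Of 6 ILC2 markers 1, Rora, rose (120 to 137, 116 and 155 CPM, most of it Gata3). The 5 ILC2 markers with a WT mean of at most 10 CPM summed to 8.64 to 13.6, 18.3 and 38.4 CPM. The 8 NK markers summed to 12928 to 13808 CPM in WT and to 13399 and 11393 CPM in KO 1 and KO 2, with 1 called lower, Klrb1c. Only Gzma had a positive fold change (2342 to 3413 CPM in WT, 4268 and 3195 CPM in KO 1 and KO 2), and the median log2 fold change of the 8 was -0.33. In 4 of the 8, both KO libraries lay below all 4 WT libraries, against 18.8% of all genes tested.

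**Figure D4:**
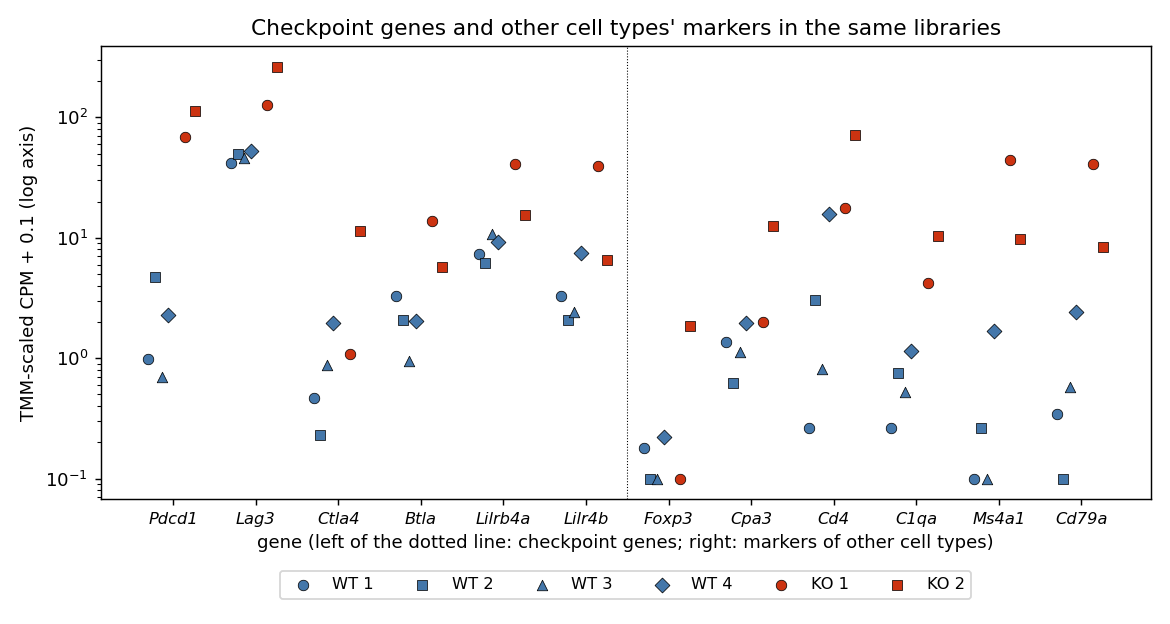
TMM-scaled CPM plus 0.1 on a log axis in each library (blue, 4 WT; red, 2 KO) for 6 checkpoint genes and, right of the dotted line, markers of regulatory T cells (Foxp3), mast cells (Cpa3), T cells (Cd4), macrophages (C1qa) and B cells (Ms4a1, Cd79a), chosen after their values were seen. Btla, Lilrb4a, Lilr4b and the B cell genes are higher in KO 1, and Pdcd1, Lag3, Ctla4, Foxp3, Cpa3, Cd4 and C1qa are higher in KO 2. Cd4 is 1 of 11 alpha-beta T cell markers, 6 of which were higher in KO 1.

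Of 9 ligand genes of the checkpoint receptors tested, 3 rose, none fell and 6 did not pass the test (median log2 fold change 1.15). Over all genes tested, 8.13% were called higher and 5.58% lower. In 6 of the 9, both KO libraries lay above all 4 WT libraries, against 20.5% of all genes tested. Fgl1, a ligand of LAG-3, had 0 counts in every library. Cd86, the ligand shared by CD28 and CTLA-4, rose from 1.65 ± 0.36 CPM (SD, n = 4) to 17.2 and 6.42 CPM in KO 1 and KO 2 (log2 fold change 2.70, adjusted p = 0.00466, and 2.05 and 0.0763 without KO 1). Lgals3, a galectin gene whose product binds LAG-3, rose from 40.0 ± 4.23 to 116 and 113 CPM (1.53, adjusted p = 4.35e-04). Pdcd1lg2, the gene of PD-L2, rose from 16.2 ± 2.31 to 35.9 ± 0.109 CPM (SD, n = 2) (1.15, adjusted p = 0.00491). Cd274, the gene of PD-L1, was at 47.9 to 52.2 CPM in WT and at 53.4 and 60.5 CPM in KO 1 and KO 2 (0.19, adjusted p = 0.276). Tnfrsf14, the HVEM gene, was at 18.4 to 24.2, 26.5 and 28.6 CPM (0.36, adjusted p = 0.160). Cd274 and Tnfrsf14 are given as the partners of PD-1 and BTLA and were not chosen by size of change. MHC class II, the main ligand of LAG-3, was counted among the dendritic cell markers. Its chain genes H2-Aa (7.73 to 32.4 CPM in WT, 106 and 107 in KO 1 and KO 2, log2 fold change 2.85, adjusted p = 0.00892) and H2-Ab1 (5.95 to 26.5, 82.8 and 87.6 CPM, 2.75, adjusted p = 0.00662) both rose.

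Of 11 genes of enzymes and adaptors linked to receptor signalling, 2 fell, none was called higher and the other 9 did not pass the test (median log2 fold change -0.27). Over all genes tested, 5.58% were called lower and 13.7% in either direction. The fold change was positive in 2 of the 11. In 7 of the 11, both KO libraries lay below all 4 WT libraries, a pattern that 18.8% of all genes tested showed. Fyn, a kinase gene of proximal receptor signalling, fell from 770 ± 23.0 CPM (SD, n = 4) to 519 and 298 CPM in KO 1 and KO 2 (-0.95, adjusted p = 0.00926). Tyrobp, the gene of the activating adaptor DAP12, fell from 655 ± 48.5 to 398 and 423 CPM (-0.67, adjusted p = 0.00610). Ptpn6, the gene of SHP-1 and an example given for its role, was at 371 to 466 CPM in WT and at 472 and 386 CPM in KO (0.02, adjusted p = 0.926).

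Costimulatory receptor genes went both ways, with 3 of 7 higher, 2 lower and 2 not called (median 0.23). Over all genes tested, 8.13% were called higher and 5.58% lower, 13.7% in either direction. Cd28, the activating counterpart of CTLA-4, fell from 203 ± 39.5 CPM (SD, n = 4) to 112 and 45.9 CPM in KO 1 and KO 2 (log2 fold change -1.42, adjusted p = 0.0406). That call was lost without WT 1 (adjusted p = 0.106), WT 2 (0.0665) or KO 2 (0.132, log2 fold change -0.69), and the fold change was -2.31 without KO 1. Cd226, an activating adhesion receptor gene, rose from 90.4 ± 12.4 to 227 and 337 CPM (1.64, adjusted p = 0.00192). Tnfrsf9, the gene of 4-1BB, rose from 93.6 ± 10.7 to 276 and 233 CPM (1.45, adjusted p = 7.87e-04). The remaining 2 called genes, outside the rule for naming, were Icos (29.6 to 42.9 CPM in WT, 64.7 and 134 in KO, 1.39, adjusted p = 0.0106) and Cd27 (135 to 195, 119 and 53.8 CPM, -1.03, adjusted p = 0.0378).

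Among 16 other inhibitory receptor genes, 5 rose, 1 fell and 10 were not called (median 0.70), against 8.13% higher and 5.58% lower over all genes tested. The largest called change was that of Siglecg, a B cell lectin gene with 0 counts in WT 1 and WT 2, 0.060 CPM in WT 3 and 0.283 CPM in WT 4, and 7.71 and 2.67 CPM for KO 1 and KO 2 (log2 fold change 5.84, SE 1.23, adjusted p = 0.0216). Its call was lost without WT 1 (adjusted p = 0.0611), WT 3 (0.0761) or KO 1 (0.234, log2 fold change 4.24), and the fold change was 8.18 without WT 4 and 7.98 without KO 2. Cd200r1 rose from 6.21 ± 2.67 CPM (SD, n = 4) to 91.2 and 132 CPM (4.17, adjusted p = 6.51e-04). Cd22, another B cell lectin gene, was at 4.61 to 11.2 CPM in WT and at 49.0 and 9.02 CPM in KO 1 and KO 2, so that KO 2 lay within the WT range. Its log2 fold change of 1.65 (adjusted p = 0.0491) was lost without WT 1 (0.121), WT 2 (0.0840), WT 3 (0.146) or KO 1 (0.484, log2 fold change 0.58), and was 2.48 without KO 2. Siglecg and Cd22 were thus higher in KO 1 than in KO 2, as were the B cell markers described above. The other called genes of the list, outside the rule for naming, were Pecam1 (103 to 113 CPM in WT, 245 and 402 in KO 1 and KO 2, log2 fold change 1.55, adjusted p = 0.00146), Klrg1 (54.4 to 75.9, 174 and 122 CPM, 1.17, adjusted p = 0.00681) and Cd72, which fell (76.1 to 96.8, 63.2 and 55.8 CPM, -0.53, adjusted p = 0.0318).

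Of 14 transcription factors known to regulate checkpoint genes in T cells, 1 fell and the other 13 did not pass (median log2 fold change -0.19), a count near the 13.7% of all genes called in either direction. Both KO libraries lay below all 4 WT libraries in 5 of the 14, against 18.8% of all genes tested. They lay above all 4 in 1, against 20.5%. Eomes, the T-box factor gene of NK and memory T cells, fell from 893 ± 62.1 CPM (SD, n = 4) to 295 and 140 CPM in KO 1 and KO 2 (-2.11, adjusted p = 0.00159). Tox, a factor of T cell exhaustion named here for that role, was at 114 to 143 CPM in WT and at 101 and 169 CPM in KO (0.08, adjusted p = 0.835). Nr4a1, an early response gene, stood at 567 CPM in WT 4 and at 51.5 to 58.7 CPM in the other WT libraries, against 50.5 and 30.4 CPM in KO (-1.50, adjusted p = 0.390).

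**Figure D5:**
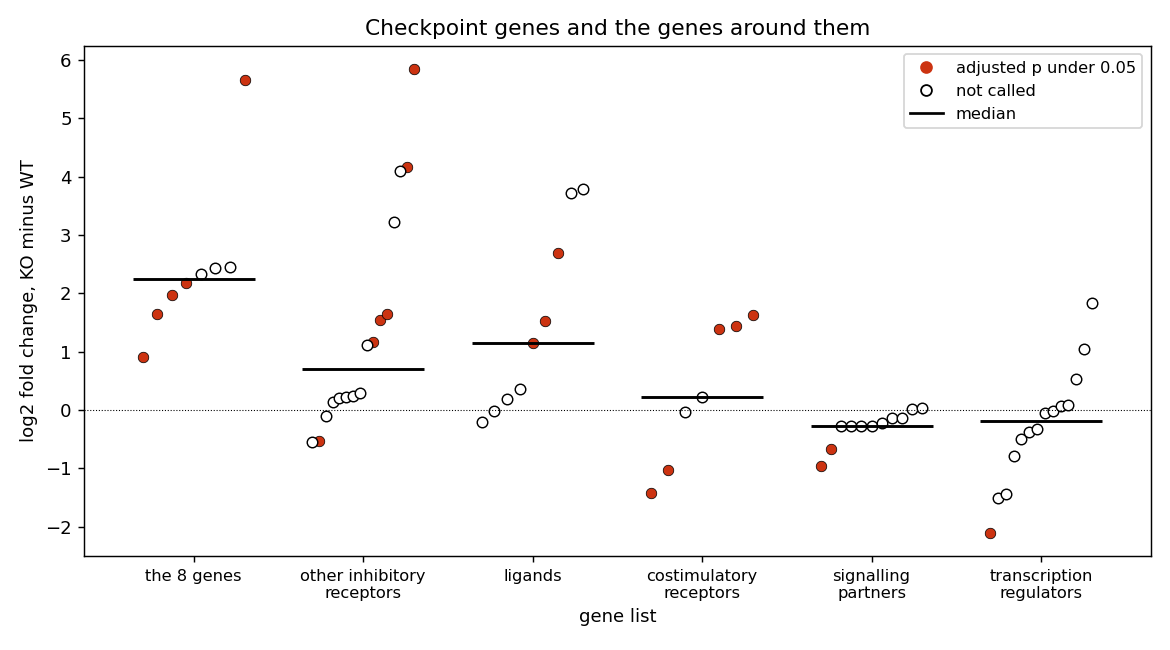
Log2 fold changes (KO minus WT) of the tested genes of 6 lists, with red points for an adjusted p under 0.05, open points for genes not called and lines at the medians. The median is 2.25 for the 8 checkpoint genes, 0.70 for other inhibitory receptors, 1.15 for ligands, 0.23 for costimulatory receptors, -0.27 for signalling partners and -0.19 for regulators.

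The genes whose pattern over the 6 libraries lay closest to Pdcd1 were Csf1, Cd200r2, Upp1, Igha and Trac. Closeness was the root mean square distance of log2 CPM centred on each gene's mean, and it was 0.72, 0.81, 0.84, 0.87 and 0.97 for these 5. Csf1, the macrophage growth factor gene, was at 1.80 to 2.99 CPM in WT and at 102 and 204 CPM in KO 1 and KO 2. Cd200r2, a CD200 receptor family gene, was at 0.648 to 1.85, 31.2 and 53.6 CPM, and the uridine phosphorylase gene Upp1 at 2.47 to 4.52, 101 and 237 CPM. Igha, the immunoglobulin A constant gene, was at 1.74 to 3.43, 182 and 121 CPM, and Trac, the T cell receptor alpha constant gene, at 16.8 to 39.2, 405 and 636 CPM. In all 5 both KO libraries stood above the WT libraries, and Igha alone among them was higher in KO 1 than in KO 2. These genes share the 6 libraries, and the distances cover both the difference between the groups and the spread within them.

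Lag3 had neighbours at smaller distances. The distance is not scaled to the size of a gene's change, and the log2 fold change was 1.97 for Lag3 and 5.65 for Pdcd1. Distances to Lag3 and to Pdcd1 are therefore not comparable. Avil, an actin-binding protein gene, lay at a distance of 0.063, with 6.03 to 7.42 CPM in WT and 19.3 and 37.0 CPM in KO 1 and KO 2. Gpr34, a receptor gene for lysophosphatidylserine, lay at 0.12 (16.8 to 25.2, 52.7 and 105.8 CPM), and the glutaredoxin gene Glrx at 0.16 (16.6 to 22.6, 62.7 and 90.3 CPM). All 3 were higher in KO 2 than in KO 1, as Lag3 was.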

How the data were processed

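RNA-seq counts of 6 libraries of sorted thymic NK cells, 4 WT and 2 KO, were used. The authors deposited raw whole-number counts per Entrez gene, made with featureCounts on the mm10 build per the submitters' processing notes. The aligner and its version were not given in the sources used here. Libraries were made with the SMART-Seq v4 kit, per the labels' protocols, which does not mark strand. No gene of the RefSeq table overlapped a checkpoint gene. The series table held 0 columns of other samples and matched the 6 single-sample files. No 2 libraries of a group agreed within counting noise (chi-square over df between 8.86 and 62.2, the highest with WT 4), and PCR reads without molecular identifiers are not independent molecules.

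Symbols came from RefSeq (GRCm38.p6, the same build as mm10), which matched 25275 of 26332 IDs. KO and WT were compared with edgeR 4.0.16 (R 4.3.3; TMM, filterByExpr, glmQLFit and glmQLFTest, sex as an additive term, 3 residual degrees of freedom). P-values were adjusted by Benjamini-Hochberg over 13652 genes. Every adjusted p is from this edgeR test except where DESeq2 or limma is named. A 95% interval given for a share is an exact Clopper-Pearson one. RPKM used the deposited gene length. The distance between patterns used a prior count of 2 and genes with a mean of at least 2 log2 CPM.

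The members, the 15 other gene lists and the tests were chosen with earlier results of these data known. From each list that is not a marker list, every called gene was named if 3 or fewer, otherwise the 3 with the largest change. The genes nearest to Pdcd1 (5) and Lag3 (3) were named too. Genes outside this rule are marked or are markers. Values of 1 marker gene are not reported here. On simulated counts (13309 genes), the fit found 64% of 2-fold and 81% of 4-fold changes, with 19 false among 164 calls. That false share is above the 0.05 at which genes were called. The simulation gave WT and KO the same spread for each gene. The alternatives were other scalings, filters and covariates, DESeq2 1.42.0, limma 3.58.1 (voom), robust fitting, a test against a fold of 1.5, libraries left out and the Lilr copies summed.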

Additional observations from a re-analysis of the deposited data

Results flagged for a closer look

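The WT values of the 82 genes named in the text were looked at for a library far from the other 3, and 7 genes showed one. Chance alone gives about 5% of such groups, and genes of this kind are not independent. In all 7 the library was WT 4. Eomes stood at 800.4 CPM in WT 4 against 913 to 930 CPM in the other WT libraries, and all 4 lay above both KO values of 295 and 140 CPM. Nr4a1 stood at 567 CPM against 51.5 to 58.7 CPM. The CD8 genes Cd8a and Cd8b1 stood at 20.1 and 17.4 CPM, against 1.78 to 2.94 CPM and 1.01 to 1.68 CPM. Ms4a1 stood at 1.57 CPM against 0 to 0.165 CPM. Cd14 and Krt5 each stood at 0.0404 CPM, which is 1 count, against 0 in the other 3, and lay below the floor of 3 counts. No checkpoint gene was among the 7.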

How the results depend on the processing

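No checkpoint gene changed direction under any alternative in which it was tested. Pdcd1 and Lag3 kept their calls under all 19, Lilrb4a under 15 of 18, Cd101 under 14 of 19 and Btla under 13 of 19. Havcr2 was called under 3 of 18, Ctla4 under 1 of 18 and Lilr4b under 7 of 18. Summing the Lilr copies leaves the counts of the other checkpoint genes unchanged, so it could not test their calls, though it is counted among their alternatives. With at least 5 CPM in 2 libraries required, Havcr2 and Ctla4 were not tested. Leaving out 1 library gave 550 to 1159 genes higher, 337 to 749 lower, and 2 to 6 of the 8 checkpoint genes higher. Where 1 KO library was left, its spread was taken to equal that of WT. Limma voom called all 8 checkpoint genes higher, with 1525 genes higher in all, against 1110 by edgeR. The test against a fold of 1.5 called 2 of them (Pdcd1 and Lag3), with 491 genes higher and 136 lower in all. DESeq2 called 1361 genes lower, against 762 by edgeR. Scaling by library size called 1336 genes higher and 523 lower, against 1110 and 762, and the same 5 checkpoint genes. Without division by length, Lag3 made up 47.0% and Cd101 35.8% of the summed level in WT, and Cd101 16.3% in KO, against 51.8%, 24.3% and 9.998% per length. The causes of these differences were not tested.

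The labels do not say that same-numbered mice were paired. Deviations from the group means correlated at 0.13 for WT 1 and KO 1, at -0.05 for WT 2 and KO 2, and at 0.18 for WT 4 and KO 2, which share no number. With 2 KO libraries, the deviations of KO 1 and KO 2 are mirror images of each other. These correlations can therefore neither show nor exclude pairing. With the replicate number as a block, 855 genes were higher and 486 lower. WT 3 and WT 4 share their number with no KO library, so they add nothing to the fold changes of this fit. It is therefore nearly the same alternative as leaving out WT 3 and WT 4 together (log2 fold change of Pdcd1 5.26 and 5.24, of Lilrb4a 1.92 and 1.93). Of the checkpoint genes 5 were called, with Lilr4b (adjusted p = 0.0167) in place of Btla (0.0574). Levels below 3 counts (0.0989 to 0.180 CPM) were taken as not told apart from 0, and 2 KO mice limit all comparisons.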
